A study of Mus musculus with 11 samples.

Results

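The olfactory receptor genes of the mouse were examined in a DNA methylation data set of newborn pancreas. Members were all rows of the amphetamine versus control tables on chromosomes 1 to 19 whose symbol is Olfr followed by a digit. There were 105 such promoters among 24391 promoters and 125 such genes among 25802 genes. These came from 180 receptors, of which 50 had both a promoter and a gene row, while the GENCODE M21 annotation holds 1399 olfactory receptor genes on these chromosomes (1128 protein-coding and 271 pseudogenes).

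Pancreas was taken on postnatal day 0 from wild-type C57BL/6N mice. The amphetamine group held 5 offspring (3 females and 2 males) of dams injected with 10 mg/kg amphetamine on embryonic days 14.5, 15.5 and 16.5, and the control group 6 offspring (3 females and 3 males) labelled saline. Methylation was read by reduced representation bisulfite sequencing after digestion with MspI, which cuts at CCGG, and TaqI, which cuts at TCGA, so that reads of 50 bp start at these sites. For each group the tables hold the mean, SD, lowest and highest methylation and how many mice had reads, and values of single mice were not used here. The labels do not tie mice to litters, so p-values measure the spread between these mice alone. The samples are whole pancreas, and a methylation level is an average over all of its cell types.

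Olfactory receptors are G protein-coupled receptors that detect odorants, and they form the largest gene family of the mouse. Each sensory neuron of the nose expresses a single receptor allele, and the remaining receptor genes are held silent in heterochromatin. The genes lie in clusters and have few CpGs, usually with the whole coding sequence in a single exon. Class I receptors, which resemble the receptors of fish, sit together in a cluster on chromosome 7 that spans the beta-globin genes, and class II receptors occupy the other clusters. Some receptors are also used outside the nose, and in most other tissues the family is silent.

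The following stretches of 200 bases show what the enzymes could and could not reach. They were read from GRCm38, the assembly called mm10 in the tables, along the strand of the gene and 5′ to 3′, with each CCGG or TCGA site in capitals. The tables do not say which CpGs within a region had reads. The promoter of Olfr164 was the best covered of all receptor promoters, although this stretch, chr16:19287534-19287733 on the minus strand, holds only 3 CpGs.
Olfr164 promoter: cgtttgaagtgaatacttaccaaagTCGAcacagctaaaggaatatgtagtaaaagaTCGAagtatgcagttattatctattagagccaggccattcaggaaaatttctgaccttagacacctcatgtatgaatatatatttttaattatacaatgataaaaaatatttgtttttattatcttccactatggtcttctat
The promoter of Olfr750 (chr14:51071472-51071671, minus strand) and that of the pseudogene Olfr336-ps1 (chr2:36322713-36322912, plus strand) had the smallest p-values for a rise after amphetamine among receptor promoters with values in all 11 mice.
Olfr750 promoter: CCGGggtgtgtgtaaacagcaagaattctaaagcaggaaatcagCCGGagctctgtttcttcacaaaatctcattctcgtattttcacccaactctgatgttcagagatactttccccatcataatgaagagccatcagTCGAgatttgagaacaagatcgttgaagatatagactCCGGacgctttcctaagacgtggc
Olfr336-ps1 promoter: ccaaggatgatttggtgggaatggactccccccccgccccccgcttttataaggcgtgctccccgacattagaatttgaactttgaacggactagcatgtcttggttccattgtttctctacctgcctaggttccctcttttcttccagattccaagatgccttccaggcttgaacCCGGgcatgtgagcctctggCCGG
Olfr9 (chr10:128990080-128990279, plus strand) and its neighbour Olfr763 (chr10:129011453-129011652, plus strand) were among the least methylated receptors, and these stretches lie in the part that their gene and promoter rows share.
Olfr9: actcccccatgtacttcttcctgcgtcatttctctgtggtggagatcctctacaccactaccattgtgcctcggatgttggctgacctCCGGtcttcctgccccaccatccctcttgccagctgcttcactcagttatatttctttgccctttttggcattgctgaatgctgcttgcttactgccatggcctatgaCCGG
Olfr763: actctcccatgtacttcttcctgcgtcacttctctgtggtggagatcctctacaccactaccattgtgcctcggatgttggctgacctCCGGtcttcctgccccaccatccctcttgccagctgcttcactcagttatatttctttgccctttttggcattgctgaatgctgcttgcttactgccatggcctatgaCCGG
These 2 stretches share 198 of 200 bases, so reads from one gene may not be told apart from reads of the other and both levels are uncertain. Olfr94 (chr17:37197136-37197335, minus strand) and Olfr281 (chr15:98456312-98456511, plus strand) are the most CpG-dense receptor genes of the table, with 28 and 12 CpGs in these stretches, and lay at opposite ends of the methylation range.
Olfr94: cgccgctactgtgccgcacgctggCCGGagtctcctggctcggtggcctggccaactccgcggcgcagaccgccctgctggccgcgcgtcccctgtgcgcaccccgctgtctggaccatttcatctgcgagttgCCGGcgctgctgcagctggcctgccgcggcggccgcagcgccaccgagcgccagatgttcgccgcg
Olfr281: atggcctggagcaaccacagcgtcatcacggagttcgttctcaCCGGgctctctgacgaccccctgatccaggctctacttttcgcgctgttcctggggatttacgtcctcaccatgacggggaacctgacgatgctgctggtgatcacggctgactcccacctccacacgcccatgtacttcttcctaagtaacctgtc
Olfr160, a receptor often used to study receptor choice in the nose, has no row. The first 200 bases of its coding sequence (chr9:37712078-37712277, minus strand) hold neither a cut site nor a CpG.
Olfr160: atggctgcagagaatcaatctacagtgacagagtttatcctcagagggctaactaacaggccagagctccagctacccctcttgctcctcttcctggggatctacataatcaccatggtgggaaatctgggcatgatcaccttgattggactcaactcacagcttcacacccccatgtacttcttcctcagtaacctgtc

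Which receptors were measured followed the position of cut sites. A cut site was counted as close to the next when 40 to 300 bp lay between them, a window chosen after the tables had been seen. Of the 239 receptors with such a site in the coding span, 83 (34.7%) had a gene row, against 30 of 535 (5.61%) with other cut sites and 9 of 625 (1.44%) with none. Promoters were taken in this count from 1500 bp before the start of the coding span to 500 bp into it. For them the numbers were 76 of 275 (27.6%), 18 of 646 (2.79%) and 6 of 478 (1.26%). Where no coding sequence is annotated, the gene span stood in for the coding span. Receptors with a gene row had a median of 13.5 CpGs in the coding span and those without a row 6. In promoters the medians were 13.5 and 8. These counts rest on the 122 gene and 100 promoter rows whose identifier is in the annotation as an olfactory receptor on these chromosomes. Sites were counted in the annotated spans, and only 53 gene rows and 59 promoter rows had the same coordinates. On the coordinates of the rows themselves, 0 of 105 promoters and 0 of 125 genes lacked a cut site, and 85 and 93 had one close to the next.

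**Figure D1:**
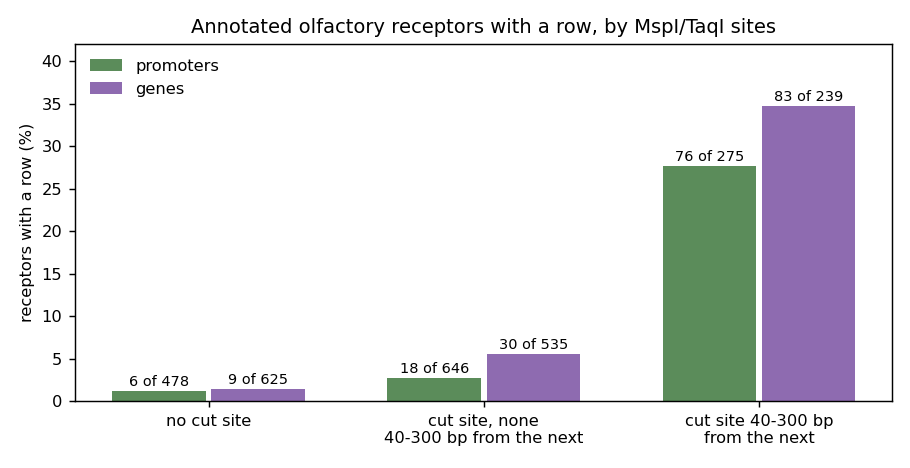
Share of the 1399 annotated olfactory receptors that have a row in the promoter (green) or gene (purple) table, in percent, by MspI and TaqI sites in the promoter or coding span. Bars carry the numbers of receptors. The share is 27.6% and 34.7% with a cut site 40 to 300 bp from the next and at most 1.44% with no cut site.

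Of a list of 12 receptors that are used outside the nose or serve as models within it, 5 had a row. Olfr544, Olfr78 and Olfr558, class I receptors reported in metabolic and oxygen-sensing tissues, had gene rows, Olfr17 (P2) had both rows, and Olfr15 had a promoter row. Olfr1393, Olfr16 (MOR23), Olfr2 (I7), Olfr73, Olfr151 (M71), Olfr160 (M72) and Olfr1507 (MOR28) had none. None of these 7 had a cut site close to the next in either region, although the measured Olfr15 and Olfr17 had none either.

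Coverage of the receptors was low. The median coverage per mouse of receptor promoters was 37.0 in the amphetamine group and 26.2 in controls, against 230.2 and 184.2 over all promoters. For receptor genes it was 46.2 and 40, against 445.4 and 359.2 over all genes. The sources do not state whether this coverage counts reads or sums them over CpGs. Summed over receptor promoters the amphetamine group had 1.23 times the control coverage, and over receptor genes 1.20 times. The ratio was 1.24 over all promoters and 1.24 over all genes. Coverage of at least 10 in both groups was reached by 79 of 105 promoters and 108 of 125 genes, and values in all 11 mice by 68 and 81. The best covered promoters were those of Olfr164 (697.6 in amphetamine, 619.3 in control), Olfr279 (462.0 and 337.8) and Olfr750 (294.4 and 234.8). The best covered gene row, Olfr56 (2288.2 and 1826.3), spans a long locus that also holds the interferon-induced genes Ifi47, Tgtp1 and Tgtp2, and its level belongs to these as much as to the receptor.

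The receptors were highly methylated in pancreas. The median control methylation of the 105 receptor promoters was 88.7% (quartiles 77.7% and 93.5%), where that of all 24360 promoters tested was 8.12%. At least 80% methylation was found in 75 receptor promoters, 20% to 80% in 27 and less than 20% in 3. Among the other promoters with 30 or fewer CpGs, which most receptor promoters also have, the median was 81.3% (quartiles 63.9% and 91.0%), and the 94 receptor promoters in this range had 89.4%. Receptor genes had a median of 86.0% (quartiles 75.6% and 92.8%) and all genes 52.7%, with 82.8% among the other genes with 30 or fewer CpGs. These medians are descriptions of regions and were not tested.

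Mice differed more at receptors than at the median region, and among promoters with 30 or fewer CpGs they did not differ more at receptors. The median SD between mice was 9.81 percentage points in the amphetamine group and 10.5 in controls for receptor promoters, against 3.55 and 4.04 for all promoters. For receptor genes it was 12.5 and 11.4, against 4.93 and 5.76 for all genes. Among promoters with 30 or fewer CpGs the receptors had 10.1 and 10.3 and the others 12.4 and 13.5. Among such genes the receptors had 13.7 and 13.1 and the others 10.4 and 11.5. In the 50 receptors with both rows, 38 had promoter and gene levels within 10 percentage points in controls, and 16 had the same level in both within 1e-09 points. Both rows share the first 500 bp of the gene, so they are not separate measurements.

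**Figure D2:**
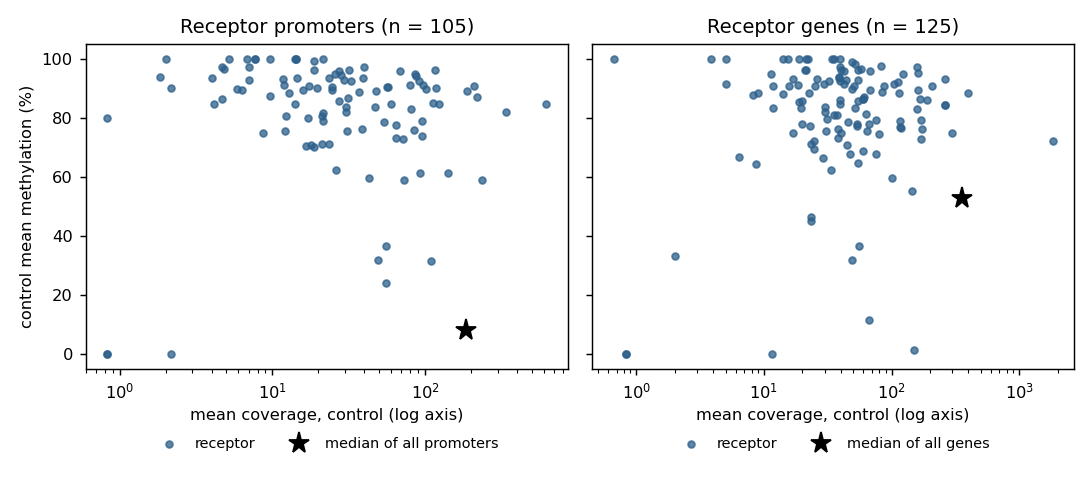
Mean methylation of the control mice in percent against their mean coverage (log axis) for the 105 receptor promoters (left) and 125 receptor genes (right), each point a receptor. The star is the median of all promoters or genes. Most receptors lie at 80% or above, and the few at or near 0% in promoters have coverages under 3.

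Some receptors lay at the low end. Receptor promoters below 20% in controls, Olfr1404, Olfr1036 and Olfr704, had a mean control coverage of 0.833, 0.833 and 2.17 and values in 3, 3 and 2 control mice, too few reads to place a level. Among promoters with values in all mice and coverage of at least 10, the lowest was Olfr336-ps1, with 24.1% ± 28.5 in controls (SD, n = 6). The pair Olfr9 and Olfr763 followed, each with the same level in its promoter and gene rows. Olfr9 had 36.5% ± 15.8 (SD, n = 5) after amphetamine and 31.7% ± 14.1 (SD, n = 6) in controls, and Olfr763 had 36.2% ± 22.0 and 36.4% ± 9.31. The highest of the 11 mice was at 53.2% for Olfr9 and 54.6% for Olfr763, below the lower quartile of receptor promoters. The limit from their shared sequence, given above, holds for both. Olfr658, a class I receptor singled out after its values were seen, had promoter means of 27.1% ± 8.83 (n = 5) after amphetamine and 31.5% ± 29.8 (n = 5) in controls, at coverages of 92 and 109.3. Its gene row went the other way, with 34.6% ± 47.2 (n = 4) against 11.4% ± 17.7 (n = 5), at coverages of 38.6 and 67.2.

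The lowest well-covered receptor gene was Olfr94 on chromosome 17. It had 1.16% ± 1.80 methylation (SD, n = 5) after amphetamine and 1.25% ± 3.06 (SD, n = 6) in controls, with coverages of 180.6 and 150.2 and no mouse above 7.50%. A CpG island of 632 bp (chr17:37197001-37197632) lies within this row, the only island found in any receptor gene or promoter row, and its values were the same. Olfr94 has 6.67 CpGs per 100 bp, the highest of the 125 receptor genes, whose median is 1.14. Olfr95 in the same cluster, with 4.31, was at 0% in all 6 mice with reads, 3 in each group, at coverages of 14.2 and 11.7. High density alone did not go with low methylation. Olfr281, with 4.49 CpGs per 100 bp, had 97.6% ± 5.92 in controls (SD, n = 6), and Olfr279, with 4.18, had 74.6% ± 9.86. Over all 125 genes, Spearman's rho between CpG density and control level was 0.08, a description across genes that share libraries.

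At the upper end, 10 receptor promoters and 11 receptor genes were at 100% in every control mouse with reads. The most methylated promoter with values in all mice and coverage of at least 10, Olfr632 in the class I cluster, was at 100% in all 11 mice, with coverages of 21.8 and 21.5. The promoter of Olfr317 had 95.3% ± 6.87 (SD, n = 5) and 97.2% ± 3.32 (SD, n = 6), and that of Olfr314 94.9% ± 11.4 and 96.2% ± 6.05. The 86 promoters of protein-coding receptors had a control median of 88.6% and the 14 of pseudogenes 88.0%, and in genes the medians were 86.3% (111 rows) and 79.3% (11 rows).

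The listed model receptors were mostly high and varied widely between mice. The Olfr544 gene row ranged from 50% to 100% after amphetamine (82.3% ± 22.2, SD, n = 5) and from 0% to 100% in controls (66.5% ± 40.9, SD, n = 6). Without the control mouse at 0% the control mean was 79.8%. Olfr78 ranged from 42.7% to 96.8% (66.6% ± 25.5, SD, n = 5) and from 54.4% to 97.3% (76.2% ± 18.0, SD, n = 6), at coverages of 269.4 and 174.3. Olfr558 had values in 4 mice of each group, from 0% to 100% in both, at coverages of 3.40 and 8.67. The groups overlapped at all 3 of these class I receptors, and none passed the test, with adjusted p-values of 0.985, 0.985 and 0.993 by limma's moderated test.
Olfr17 was steadier. Its gene row had 76.1% ± 7.61 (SD, n = 5) after amphetamine and 79.2% ± 9.20 (SD, n = 6) in controls, while its promoter was at 100% in the 2 amphetamine and 4 control mice with reads. The Olfr15 promoter was at 95%, 100% and 100% in 3 amphetamine mice and ranged from 46.7% to 100% in 4 control mice (75.6% ± 28.4, SD). Its groups overlapped and its adjusted p-value was 0.958.

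The question of the treatment comparison is whether amphetamine given to the dam left different methylation in the newborn pancreas. No receptor passed an adjusted p-value of 0.05, and the receptors lay about evenly on either side of 0. The median difference, amphetamine minus control, was 0.39 percentage points over 105 receptor promoters, of which 54 were higher, 46 lower and 5 equal. It was 0.12 points over 125 receptor genes, of which 64 were higher, 55 lower and 6 equal. Over all regions the medians were 0.00 points for promoters and -0.09 for genes. By limma's moderated test over all 24360 promoters, 0 of 105 receptor promoters were called, where 4 of all promoters were (0.0164%). In genes 0 of 125 receptors were called, where 3 of all 25779 genes were (0.0116%). The lowest adjusted p-value of a receptor was 0.238 in promoters and 0.215 in genes, both at Olfr1338.

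At an unadjusted p below 0.05 there were 8 receptor promoters (3 higher and 5 lower) and 8 receptor genes (6 higher and 2 lower). Over all regions 4.11% of promoters and 4.38% of genes had such a p. With values in all 11 mice the receptors numbered 4 of 68 promoters, beside 3.94% of all promoters, and 5 of 81 genes, beside 4.25% of all genes. On an arcsine square root scale they numbered 17 of 105 promoters, beside 8.62% of all promoters, and 14 of 125 genes, beside 6.33% of all genes. In regions with values in all 11 mice, the ranges of the groups did not overlap in 0 of 68 receptor promoters and 0 of 81 receptor genes, beside 0.395% of all such promoters and 0.312% of all such genes. With at least 2 mice in each group, Olfr1338 was the only receptor whose groups did not overlap, in both tables, beside 0.538% of promoters and 0.369% of genes. A difference of over 25 percentage points was found in 12 receptor promoters, beside 2.85% of all promoters, and in 11 receptor genes, beside 1.57% of all genes. Only 1 of each had values in all mice. With 30 or fewer CpGs, 12 of 94 receptor promoters had such a difference, beside 479 of 6118 other promoters. In genes of that kind it was found in 11 of 97 receptors and 183 of 2979 others. At a mean coverage below 10 in a group, it was found in 8 of 26 receptor promoters, beside 286 of all 1536 tested. For genes at such coverage the counts were 4 of 17 receptors and 175 of all 1002 tested.

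**Figure D3:**
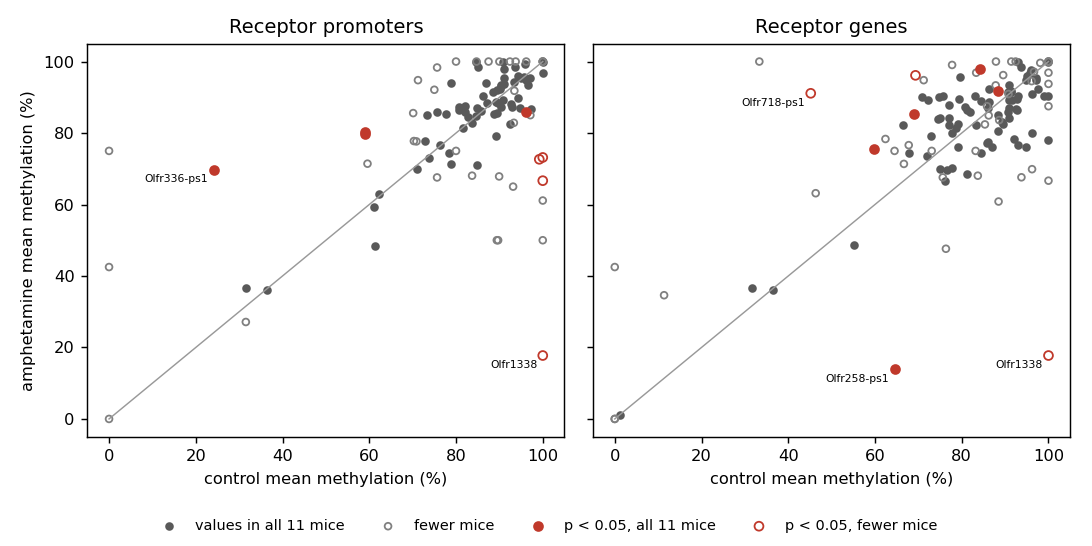
Mean methylation after amphetamine against that of controls, in percent, for receptor promoters (left) and receptor genes (right), with the line of equality. Filled points have values in all 11 mice, open points in fewer, and red points have an unadjusted p below 0.05. Points lie on both sides of the line, and most far from it are open.

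Olfr1338, in the cluster on chromosome 4, had the largest difference, on few reads. Its 2 amphetamine mice with reads were at 0% and 35.5%, and the 5 control mice with reads were all at 100%. The difference was -82.3 ± 8.73 percentage points (SE) in the promoter row, with coverages of 9.60 and 14.2. The gene row gave the same means, and its 942 bp overlap the promoter. The other 3 amphetamine mice and 1 control mouse had no reads there. On an arcsine square root scale, approximated from the group means and SDs, the promoter row had an adjusted p of 0.0494 by the same limma test. No other receptor row passed under the treatment alternatives tried. On that scale 0.103% of all promoters and 0.0233% of all genes passed.

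Among promoters with values in all mice, Olfr336-ps1 had the smallest p. Its amphetamine mice ranged from 49.0% to 90.7% (69.8% ± 14.9, SD, n = 5) and its control mice from 0% to 70.3% (24.1% ± 28.5, SD, n = 6). The groups overlapped through the highest control mouse, without which the control mean was 14.9%. The difference was 45.6 ± 13.6 points (SE, adjusted p = 0.958 by limma's moderated test).
Olfr750 was covered best among the receptor promoters with an unadjusted p below 0.05. Its promoter ranged from 74.9% to 88.3% after amphetamine (80.2% ± 5.01, SD, n = 5) and from 44.7% to 79.4% in controls (59.0% ± 14.9, SD, n = 6), a difference of 21.2 ± 6.72 points (SE). The ranges overlapped through the upper control mice, and the adjusted p-value was 0.958.
Olfr633, a class I receptor, was higher after amphetamine in both rows. Its promoter had 79.7% ± 8.16 (SD, n = 5) against 59.0% ± 18.5 (SD, n = 6), and its gene row 96.1% ± 8.63 (n = 5) against 69.3% ± 23.5 (n = 5). The ranges overlapped in both rows.

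The 5 promoters that were lower at an unadjusted p below 0.05 had control means of 96.2% to 100%. Of these, Olfr1475 had values in all mice, with 85.8% ± 8.16 (SD, n = 5) against 96.2% ± 5.37 (SD, n = 6), and coverages of 43.0 and 31.8. Olfr260-ps1 had 86.7% ± 9.97 against 97.2% ± 6.80 at coverages of only 8.20 and 4.67, and Olfr455 had 87.1% ± 9.12 against 94.8% ± 3.38 at 110.4 and 86.0. The last pair had unadjusted p-values of 0.0565 and 0.0714 by limma, and groups that overlapped. The other promoters below 0.05 were measured in fewer mice. Olfr550, Olfr683 and Olfr872 had control means of 99.2%, 100% and 100% in 5 mice each and amphetamine means of 72.6%, 66.7% and 73.2% in 5, 4 and 5 mice. Mean control coverage of these 3 was 18.8, 2 and 14.3.

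In gene rows with values in all mice, Olfr404-ps1, Olfr284 and Olfr18 had the smallest p among those higher after amphetamine. Olfr404-ps1 ranged from 75.7% to 98.9% (85.2% ± 8.86, SD, n = 5) against 59.2% to 79.8% (68.9% ± 7.11, SD, n = 6), a difference of 16.3 ± 4.58 points (SE, adjusted p = 0.984 by limma). Olfr284 ranged from 94.5% to 100% (97.9% ± 2.24) against 70.8% to 100% (84.2% ± 11.8), at coverages of 322.0 and 261.7. Olfr18, a row of 22203 bp with coverages of 528.4 and 399.0, had narrow ranges, with 91.9% ± 2.66 against 88.5% ± 0.71, and a difference of 3.43 ± 1.30 points. At each of these 3 genes the ranges of the groups still overlapped. Olfr287, on chromosome 15 like Olfr284 and in a row that also overlaps Gm44579, had 75.6% ± 6.58 against 59.7% ± 13.0.
Of the 3 gene rows lower after amphetamine with the smallest p among those with values in all mice, Olfr258-ps1 ranged from 0% to 50.4% (14% ± 22.0, SD, n = 5) and from 0% to 100% in controls (64.6% ± 37.2, SD, n = 6), so that the control mice covered the whole scale. Without the highest amphetamine mouse the amphetamine mean was 4.90%. Olfr969 (76.0% ± 25.3 against 94.9% ± 8.12) and Olfr1414 (90.3% ± 14.3 against 100% in all 6 control mice) had unadjusted p-values of 0.0945 and 0.108 by limma. Olfr718-ps1, which had 91.1% ± 19.9 (n = 5) against 45.2% ± 16.8, rested on 2 control mice.

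**Figure D4:**
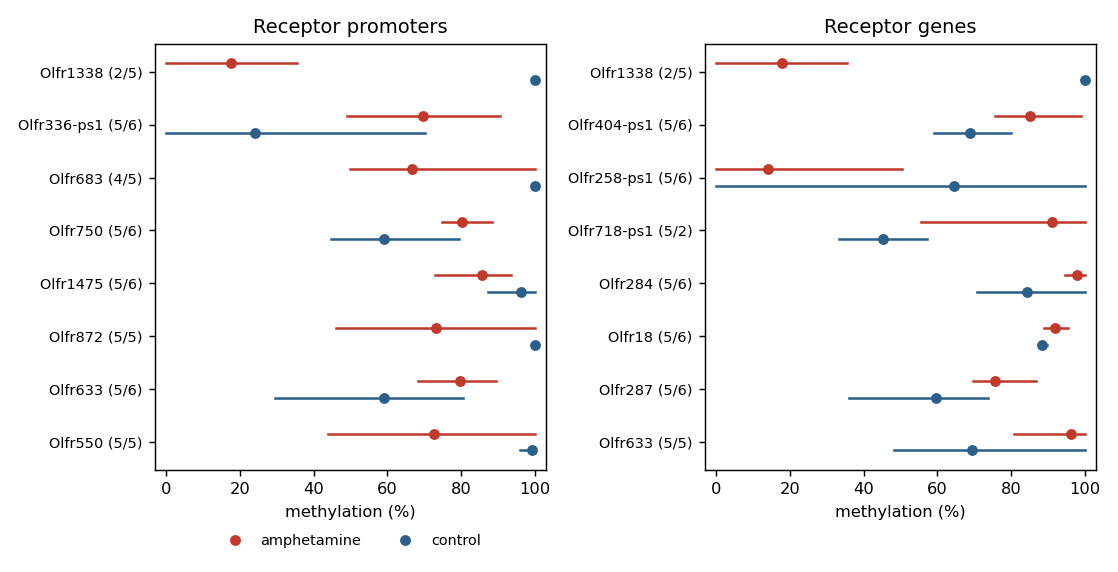
Mean (points) and lowest to highest mouse (lines) of methylation, in percent, after amphetamine (red) and in controls (blue) for the 8 receptor promoters and 8 receptor genes with an unadjusted p below 0.05, ordered by p from the top. Numbers after each name are the amphetamine and control mice with reads. The ranges are apart only at Olfr1338, with 2 amphetamine mice.

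The 1399 annotated receptors fell into 61 runs with under 1 Mb between neighbouring starts. Of these, 23 held 10 or more receptors and 21 were single genes, and 25 held no measured receptor. As above, a receptor was counted as measured only where the identifier of its row is in the annotation. This leaves out 5 promoter and 3 gene rows, so the share of a cluster can be too low. Median differences per cluster include these rows. By chromosome, 49 of 293 annotated receptors were measured on chromosome 7, 29 of 104 on chromosome 11 and 20 of 370 on chromosome 2, and none on chromosomes 3, 8 and 12, which hold 5, 5 and 1. All 23 larger clusters had at least 1 receptor with a row, but the share differed widely. On chromosome 15 (from Olfr288, 10 receptors) 60.0% were measured, and on chromosome 11 (from Olfr30, 26 receptors) 53.8%. In the largest cluster, 287 receptors on chromosome 2 from Olfr987, only 16 (5.57%) were measured, and 6 of 123 (4.88%) on chromosome 9 from Olfr160. Cut sites close to the next occurred in 90.0% and 76.9% of receptors of the first pair of clusters and in 11.8% and 13.8% of the second.

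**Figure D5:**
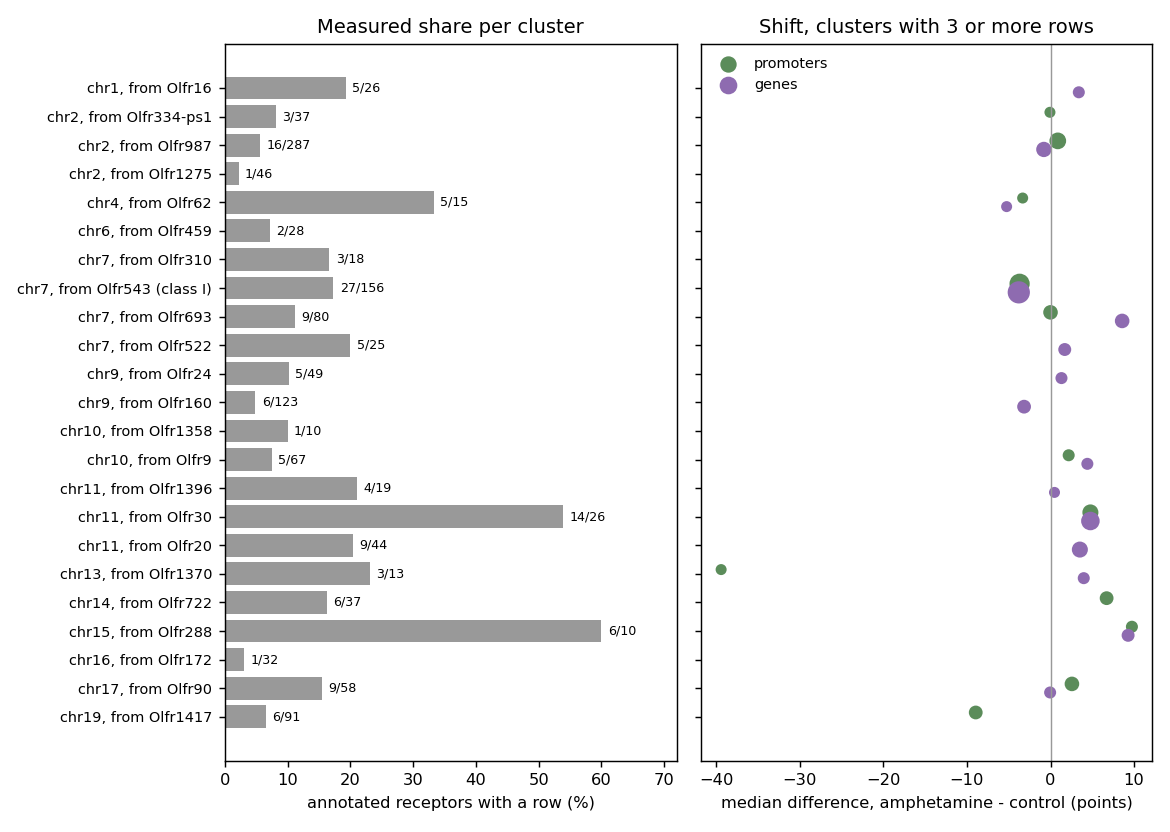
Left, share of annotated receptors with a row, in percent, in the 23 clusters of 10 or more receptors, with numbers measured and annotated. Right, median difference of amphetamine minus control in percentage points, for receptor promoters (green) and genes (purple) in clusters with 3 or more rows, point size growing with their number. The share, counted by rows whose identifier is in the annotation, runs from 2.17% to 60.0%. The medians, over all rows, lie on both sides of 0, with the lowest from 3 thinly covered promoters on chromosome 13.

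The class I cluster (chr7:102476858-105369317) held 156 annotated receptors, of which 27 were measured. In controls its 16 promoters had a median of 92.9% and its 20 genes 91.3%, above the 87.0% and 84.4% of receptors elsewhere. After amphetamine the medians were 84.1% and 84.0%, with 87.0% and 86.6% elsewhere. The median difference was -3.70 points in promoters (6 higher, 9 lower, 1 equal) and -3.80 in genes (7 higher, 11 lower, 2 equal). Some of these receptors have both rows, which share sequence, so the 2 medians are not separate measurements. By comparison, receptors of the other clusters had median differences of 0.66 and 0.53 points. Median coverage of the class I promoters was 15 after amphetamine and 20.2 in controls, where that of the others was 37.6 and 27.2, and its part in these values was not tested. The medians were not tested either, since receptors of a cluster are not replicates. From one end of the cluster to the other, the first measured row, the Olfr543 gene, had 90.3% ± 13.7 against 98.9% ± 2.59, and the last, the Olfr684 promoter, 2 amphetamine mice at 0% and 100% against 100% in 4 control mice. In 5-kb tiles across the cluster the median difference was -0.28 points, with 102 tiles higher and 127 lower.

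Median differences of other clusters lay on both sides of 0. They were not tested, since receptors of a cluster are not replicates, and promoter and gene rows of a receptor share sequence. The clusters on chromosomes 15, 14, 19 and 13 were not named by a rule set in advance. Over all regions 48.6% of promoters and 47.9% of genes were higher after amphetamine. On chromosome 15 all 4 promoters and 4 of 5 genes were higher after amphetamine, with median differences of 9.74 and 9.28 points, including Olfr284 and Olfr287. On chromosome 14 (from Olfr722) all 6 promoters, Olfr750 among them, and both genes were higher, with a promoter median of 6.71 points. On chromosome 19 (from Olfr1417), 5 of 6 promoters were lower, with a median of -8.95 points, while both genes were higher. The chromosome 11 cluster from Olfr30 had median differences of 4.77 points in promoters (5 higher, 4 lower) and genes (8 higher, 5 lower). These 2 medians are the same value, and promoter and gene rows of a receptor share sequence, so they are not separate measurements. The ends of this cluster were Olfr30, with 74.3% ± 15.2 against 67.9% ± 15.9, and Olfr225, with 67.6% ± 26.2 against 75.6% ± 36.6. The chromosome 2 cluster from Olfr987 was near 0, with 0.87 points in promoters and -0.80 in genes, and its ends were the promoters of Olfr154 (85.7% ± 13.8 against 89.3% ± 8.20) and Olfr1267-ps1 (88.3% ± 4.57 against 87.0% ± 5.80). The chromosome 13 cluster (from Olfr1370) had a promoter median of -39.4 points from 3 promoters with control coverages below 7, while its 4 genes had 3.98 points. Tiles in the chromosome 15, 14 and 19 clusters had median differences of 0.36, 0.00 and -0.67 points, nearer to 0 than the receptor promoters of these clusters.

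The DNA between receptors was covered better than the receptors. In the 23 larger clusters 26.6% of the 5-kb tiles over a receptor were listed, and 48.2% of those between receptors, beside 49.0% of all autosomal tiles. Control methylation was the same in both kinds, with medians of 86.3% and 86.3%, and 83.3% in all autosomal tiles. Median control coverage was 38.8 over receptors and 49.7 between them. After amphetamine the median difference was 0.32 points in 418 tested tiles over receptors and -0.22 in 2355 between them. An unadjusted p below 0.05 was found in 114 of 2773 tested tiles in the clusters (4.11%), beside 4.4% of all tiles, and 0 passed the adjusted threshold (lowest adjusted p = 0.241 by limma).

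Between the sexes, over both treatments, receptors also showed no call. By limma's moderated test 0 of 104 receptor promoters and 0 of 124 receptor genes had an adjusted p below 0.05, where 0.564% of all promoters and 0.373% of all genes did, sex chromosomes included. At an unadjusted p below 0.05 there were 4 receptor promoters, beside 6.07% of all promoters, and 4 receptor genes, beside 6.5% of all genes. The promoters were Olfr154 (94.4% ± 4.97 in 6 females, 79.6% ± 10.1 in 5 males) and Olfr582 (87.1% ± 12.9, 64.0% ± 17.8), higher in females, and Olfr165 and Olfr648, which were at 100% in all 5 males with reads and at 82.7% ± 13.8 (n = 6) and 76.2% ± 24.3 (n = 5) in females. The genes were Olfr70, Olfr56, Olfr1362 and Olfr281. Olfr56, whose row is shared with interferon-induced genes, had the highest coverage of these, with 74.7% ± 1.51 in females against 70.3% ± 1.80 in males.

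Genes that carry the signal of the receptors were measured far better than the receptors. Of 24 genes for olfactory signalling and receptor expression, 22 had a promoter row and 24 a gene row, with median control coverages of 279.8 and 1426. Their promoters were mostly unmethylated, with a control median of 5.20%, as in Adcy3 (3.33% ± 2.63, SD, n = 6), the adenylyl cyclase that makes cAMP on odorant binding, and Gnal (8.25% ± 1.63), the G protein subunit that activates it. The promoters of Cnga4 and Cngb1, subunits of the cAMP-gated channel, and of Omp, a marker of mature sensory neurons, were methylated like receptors, at 74.5% ± 27.9, 83.7% ± 18.5 and 89.2% ± 14.3. Those of Pde1c (83.6% ± 10.3) and Rtp2 (71.9% ± 6.82) were high as well, while that of Ano2 was at 16.1% ± 11.6. After amphetamine 0 of 22 promoters and 0 of 24 genes passed the adjusted threshold by limma's moderated test (the backgrounds are those given for the receptors). At an unadjusted p below 0.05 were the Gnal promoter (5.31% ± 1.99 against 8.25% ± 1.63, n = 5 and 6, adjusted p = 0.958) and the Ldb1 gene (21.9% ± 3.45 against 27.2% ± 4.21, adjusted p = 0.984), both lower.

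The vomeronasal receptors, the other large families of chemosensory receptors, had similar levels. Vmn1r promoters (20 rows of 209 annotated genes) had a control median of 79.9% and Vmn2r genes (82 rows of 120 annotated) 86.5%. Vmn2r genes have several exons and long introns, and their rows held a median of 111 CpGs at a median control coverage of 106.9, against 17 CpGs and 40 for olfactory receptor genes. Median differences after amphetamine were -1.28 points in Vmn1r promoters (10 higher, 10 lower), -5.99 in Vmn1r genes (4 higher, 9 lower) and -1 in Vmn2r genes (38 higher, 44 lower). Vmn1r220 passed the adjusted threshold in both tables (adjusted p = 0.0046 and 0.0038 by limma's moderated test), at 100% in 4 amphetamine mice and 5% ± 7.07 in 2 control mice, with a control coverage of 3.83. Its promoter and gene rows held the same values, so they are not separate measurements. Over all regions 0.0164% of promoters and 0.0116% of genes passed. As a check of the tissue, pancreas markers could not serve, because methylation does not give expression. Of 7 such genes, promoters of Gcg, Pnlip, Cela1 and Krt19 had control means of 90.0%, 85.0%, 90.3% and 40.2%, and 0 of the 4 measured promoters and 0 of the 6 measured genes had an adjusted p below 0.05.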

How the data were processed

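The authors cut pancreas DNA with both enzymes, read 50 bp from one end, mapped with Bismark against mm10, summarised CpGs per region in RnBeads and tested with limma. For the aligner and limma, no version is given in the sources used here. The paper also used methylKit for base pairs and promoters, with Fisher's exact test for pooled mice and an overdispersion-corrected chi-squared test. Those results were not used here. The deposited methylation values are fractions averaged by the authors across mice that had reads and are given in percent, with their SD, lowest and highest mouse. The deposited coverage is a signal averaged over mice and not scaled for depth. The authors' own differences, quotients, p-values and ranks were not used. Depth per mouse was not analysed here.

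A moderated test was rebuilt from group means, SDs and numbers of mice (limma 3.58.1 in R 4.3.3, two-sided), over all rows of a table with at least 2 mice per group, with Benjamini-Hochberg adjustment. The tool offsets pooled variances of 0, which occur where the mice agree within each group, away from 0. An SD of 0 in at least 1 group was found in 22 receptor promoters and 19 receptor genes of the treatment comparison. The script was tested on simulated data. CpGs and cut sites were counted in GRCm38 with pysam 0.24.0. Receptors were named when on a list of model receptors, by smallest p (3 higher and 3 lower, values in all mice), by lowest or highest control level, by coverage, as ends of clusters with 10 or more measured receptors, or where groups did not overlap. Others were named after their values were seen. Members and lists were chosen with earlier results of these data known. Alternatives were coverage of at least 10, values in all 11 mice, a variance trend, an arcsine square root scale, the study's thresholds and a 500 kb cluster gap. For the arcsine square root scale the group means were transformed, not the values of mice. The SDs on it were approximated from the group SDs, with means clipped to 0.01 and 0.99. A group SD of 0, as in the Olfr1338 controls, stayed 0 on this scale before moderation.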

Additional observations from a re-analysis of the deposited data

How the results depend on the processing

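With values in all 11 mice, receptors with an unadjusted p below 0.05 numbered 4 promoters and 5 genes in place of 8 and 8, by construction from fewer regions (68 and 81), beside 3.94% of all promoters and 4.25% of all genes in that fit. On the arcsine square root scale they numbered 17 and 14, beside 8.62% of all promoters and 6.33% of all genes. There 1 promoter, Olfr1338 with 2 amphetamine mice, had an adjusted p below 0.05, beside 0.103% of all promoters, and the cause was not tested. Its adjusted p (limma) was 0.238 as reported, 0.170 with a variance trend and 0.0494 on that scale, and in genes 0.215, 0.147 and 0.138. The median treatment difference was 0.66 and 0.58 points in promoters and 0.17 and 0.06 in genes with coverage of at least 10 and with values in all 11 mice, against 0.39 and 0.12 as reported. Those shifts are smaller than the spread between mice. The other counts and levels of the family stayed within 1.5 times or within that spread. For receptors on the model list or named by p, level or coverage, all 105 alternative values kept their side of the adjusted threshold. Their direction could not change under these alternatives, which drop regions, change variances or transform the same group means. Olfr1338, the ends of clusters and the receptors named after their values were seen are not in this count. No alternative that leaves out a mouse was run, since it needs values of single mice, which were not used here. No paired analysis was possible because the labels give no replicate numbers that treatment groups share. Coverage was low for many receptors: 26 of 105 promoters and 17 of 125 genes had a mean coverage below 10 in a group. Over all regions 1561 of 24391 promoters and 1022 of 25802 genes did. The median coverage of all promoters was 184.2 in controls.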
